A study of Mus musculus with 2 samples.

Results

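Pou5f1, Sox2, Sall4, Zfp296, Utf1, Tdgf1, Tdh, Dppa5a, Khdc3 and Ooep are 10 pluripotency-associated genes among the 22711 genes listed for 2 lines of immortal mouse embryonic fibroblasts. They were picked by name from earlier results of these data, for their levels and allele shares in 1 of the lines, so their values are given as a description and no test was made on them. Both lines are hybrids of the strains C57BL/6N (B6) and PWK/PhJ (PWK), with 1 library each. In PWK-Xi, whose strain label reads C57BL/6N X PWK/PhJ, the inactive X chromosome is the PWK copy. In B6-Xi, labelled PWK/PhJ X C57BL/6N, it is the B6 copy. Both were grown on gelatin in DMEM with NBCS and beta-mercaptoethanol, without a further treatment in the labels, and the labels do not say how the cells were made immortal. Polyadenylated RNA was sequenced with the full-length Smart-seq2 method, and the authors gave an FPKM value (fragments per kilobase of transcript, scaled to the library total) for each allele of each gene.

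Pluripotent cells of the early embryo, and the embryonic stem cells derived from them, are held in their state by a small set of transcription factors centred on Pou5f1 (Oct4), Sox2 and Nanog. Fibroblasts normally keep these genes silent. Pou5f1 and Sox2 bind DNA together at joined octamer and Sox motifs and act on each other's genes, while Sall4, Utf1 and Zfp296 code for further nuclear proteins of the same network. Tdgf1 (Cripto) is a co-receptor for the growth factor Nodal. Tdh, threonine dehydrogenase, starts the breakdown of threonine on which mouse embryonic stem cells depend. Dppa5a, Khdc3 (Filia) and Ooep (Floped) code for small proteins of 1 family with KH domains, an RNA-binding fold, and the Khdc3 and Ooep proteins belong to the subcortical maternal complex of the mouse oocyte.

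The promoter windows of Pou5f1, Sox2, Zfp296 and Ooep are shown because they cover the network's central pair, the member that came from PWK and a chromosome 9 member. Each window runs from 250 bases before to 50 bases after a transcript start in RefSeq, build GRCm38.p6, and windows were found for 7 of the 10 genes. The reference is of the C57BL/6J strain. Capitals mark the motifs searched on both strands: ATGCAAAT (the octamer bound by Pou5f1) and its first 7 letters alone, the nuclear receptor motif AGGTCA, the GC box (GGGCGG) and the Sox motif CATTGT.
Pou5f1, chr17:35505782-35506081, plus strand: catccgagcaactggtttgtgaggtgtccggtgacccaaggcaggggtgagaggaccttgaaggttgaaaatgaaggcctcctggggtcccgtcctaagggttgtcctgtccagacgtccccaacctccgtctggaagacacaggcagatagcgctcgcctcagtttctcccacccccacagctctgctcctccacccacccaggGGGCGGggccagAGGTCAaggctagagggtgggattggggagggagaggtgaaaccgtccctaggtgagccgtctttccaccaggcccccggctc
Sox2, chr3:34649745-34650044, plus strand: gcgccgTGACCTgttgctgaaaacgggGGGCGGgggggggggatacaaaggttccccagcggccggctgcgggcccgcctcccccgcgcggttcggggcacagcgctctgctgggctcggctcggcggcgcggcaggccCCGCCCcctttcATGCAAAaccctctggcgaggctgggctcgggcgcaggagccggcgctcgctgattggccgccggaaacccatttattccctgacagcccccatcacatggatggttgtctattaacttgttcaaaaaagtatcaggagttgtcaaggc
Zfp296, chr7:19577037-19577336, plus strand: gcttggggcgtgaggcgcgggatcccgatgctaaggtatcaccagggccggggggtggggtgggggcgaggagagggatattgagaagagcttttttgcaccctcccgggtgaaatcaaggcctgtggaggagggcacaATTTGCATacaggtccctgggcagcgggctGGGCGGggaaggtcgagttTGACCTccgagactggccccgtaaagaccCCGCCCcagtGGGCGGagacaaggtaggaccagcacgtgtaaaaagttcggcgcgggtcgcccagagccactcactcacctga
Ooep, chr9:78378539-78378838, minus strand: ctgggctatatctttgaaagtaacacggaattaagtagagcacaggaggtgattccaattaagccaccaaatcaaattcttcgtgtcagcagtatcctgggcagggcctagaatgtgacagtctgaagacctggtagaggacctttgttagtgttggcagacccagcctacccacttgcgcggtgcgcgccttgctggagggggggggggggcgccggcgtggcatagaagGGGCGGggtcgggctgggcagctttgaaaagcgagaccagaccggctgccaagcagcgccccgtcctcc

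The Zfp296 window was the single one of 8 windows of these genes (Pou5f1 has a further start) with the whole octamer, which 1.74% of all 32851 RefSeq windows hold. Its first 7 letters, which overlap the octamer, were in the Sox2 and Zfp296 windows and in 4.63% of all windows. AGGTCA stood in the windows of Pou5f1, Sox2 and Zfp296 and in 16.3% of all. The GC box stood in 6 of the 8 windows and in 35.7% of all, and CATTGT in the further Pou5f1 window and in 12.6% of all. These are matches of letters in short windows.

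All 10 genes had signal in PWK-Xi and none had any in B6-Xi. In PWK-Xi their summed level was 268.4 FPKM, and in B6-Xi each was listed at 0 for both alleles. A 0 in B6-Xi was found for 23.3% of all 12907 genes above 0 in PWK-Xi, and for 7.92% of those of 1 FPKM or more, as all 10 genes had. From 5 FPKM upwards, where 4 of the 10 genes lie, it was 4.76%. A 0 in these files can also be a missing estimate, since Vim, B2m and Ppia, genes that fibroblasts use heavily, were listed at 0 in both lines. No fold against 0 is therefore given. In a bulk library, fewer cells of a type and less RNA per cell cannot be told apart.

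Levels within PWK-Xi spread over a wide range, from 1.13 FPKM (Ooep) to 134.9 FPKM (Dppa5a), with a median of 3.39 FPKM against 3.14 FPKM over all genes above 0 there. Dppa5a and Tdh together made 87.7% of the summed level. Dppa5a ranked at place 285 and Tdh at place 381 of the 12907 genes above 0. Pou5f1 followed at place 2273. The other 7 genes lay between 1.13 and 5.80 FPKM. With 1 library, the order of neighbouring genes in this range has no error to be read against. By the fold used elsewhere here, 4-fold on FPKM with 1 added and a minimum of 5 FPKM in either line, 4 members could be counted and all 4 were higher in PWK-Xi. A gene at 0 in B6-Xi passes this fold by construction, and 7.05% of all 5490 genes so tested did. The remaining 6 members were under 5 FPKM.

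**Figure D1:**
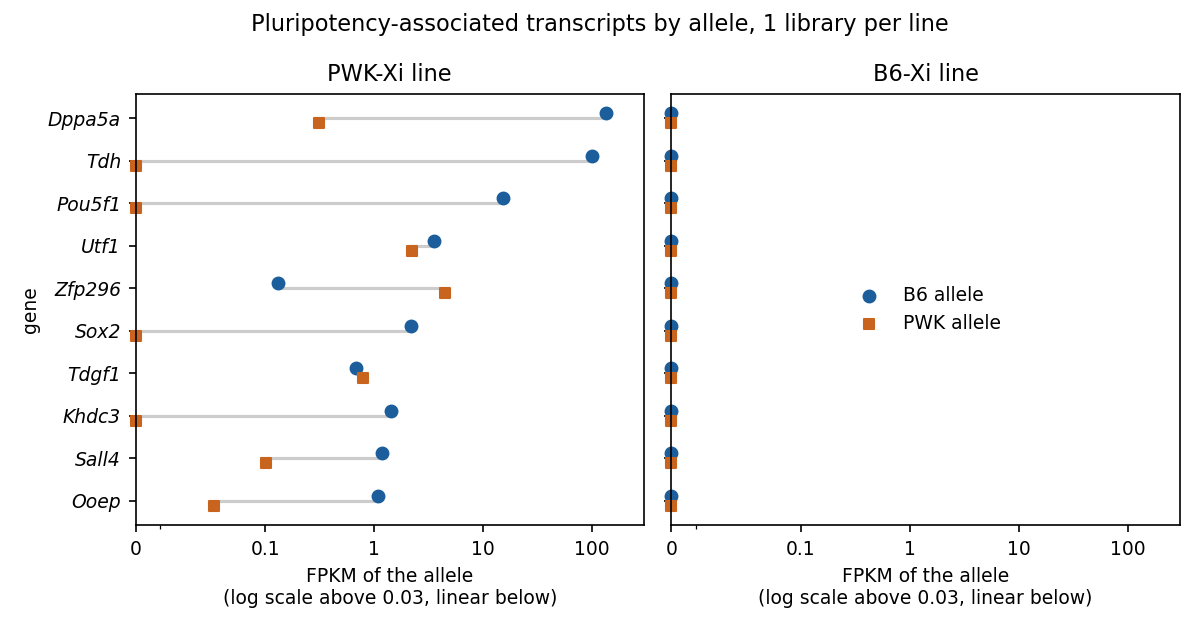
FPKM of the B6 allele (circles) and the PWK allele (squares) of each gene in PWK-Xi (left) and B6-Xi (right), 1 library per line, on an axis that is logarithmic above 0.03 FPKM. In B6-Xi all points are at 0; in PWK-Xi the B6 allele is the higher one for 8 of the 10 genes, by far for Dppa5a (134.6 FPKM from B6 and 0.314 FPKM from PWK) and Tdh (100.4 FPKM from B6 and 0 FPKM from PWK).

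The core transcription factors came from B6. Pou5f1, which specifies the inner cell mass, had 15.1 FPKM in PWK-Xi, all from the B6 allele, and was listed at 0 in B6-Xi. Its PWK allele was listed at 0 in PWK-Xi too. Sox2, the DNA-binding partner of Pou5f1, had 2.19 FPKM in PWK-Xi, again with the PWK allele at 0, and was listed at 0 in B6-Xi. Sall4, a zinc finger factor that supports Pou5f1 transcription in mouse embryonic stem cells, had 1.19 FPKM from B6 and 0.101 FPKM from PWK in PWK-Xi, a B6 share of 92.2%, and was listed at 0 in B6-Xi. These genes lie on chromosomes 17, 3 and 2. Pou5f1 has processed copies elsewhere in the genome, so its value is uncertain to the extent that reads were split among them.

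The other network members were less uniform. Zfp296, a zinc finger protein gene of mouse embryonic stem cells, went the other way, with 0.132 FPKM from B6 and 4.47 FPKM from PWK in PWK-Xi, a B6 share of 2.88%, and was listed at 0 in B6-Xi. Utf1, a chromatin-bound factor of undifferentiated embryonic cells, had 3.58 FPKM from B6 and 2.22 FPKM from PWK in PWK-Xi, a share of 61.8%, and was listed at 0 in B6-Xi. Both lie on chromosome 7. Tdgf1, the Nodal co-receptor gene on chromosome 9, had 0.685 FPKM from B6 and 0.799 FPKM from PWK in PWK-Xi, a share of 46.2%, and was listed at 0 in B6-Xi. Utf1 and Tdgf1 were thus the members with both alleles at similar levels.

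Tdh, the enzyme gene on chromosome 14, had 100.4 FPKM in PWK-Xi, with no signal from the PWK allele, and was listed at 0 in B6-Xi. Dppa5a on chromosome 9 had 134.6 FPKM from B6 and 0.314 FPKM from PWK in PWK-Xi, a B6 share of 99.8%, and was listed at 0 in B6-Xi. Processed copies of Dppa5a also exist in the mouse genome, which makes its level uncertain in the same way. Khdc3 had 1.44 FPKM in PWK-Xi, all from B6, and was listed at 0 in B6-Xi. Ooep had 1.10 FPKM from B6 and 0.0343 FPKM from PWK in PWK-Xi, a share of 97.0%, and was listed at 0 in B6-Xi. So the most abundant and the least abundant members alike were almost wholly of B6 origin. As all members were at 0 in B6-Xi, the strain of an allele and the parent that gave it cannot be told apart for them.

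In all, 7 of the 10 genes had a B6 share of at least 90% in PWK-Xi, 1 had at most 10% and 2 lay between. The median share of the members was 98.4%, against 52.8% over all 8722 autosomal genes of 1 FPKM or more in that line. Of those autosomal genes 3.27% had a B6 share of at least 90%, and 1.62% had at most 10%. The PWK allele was at exactly 0 for 4 members and for 1.8% of the autosomal genes. Sall4 at 92.2% was the member just above the 90% mark and Utf1 at 61.8% the one just under it. Summed over the members, 260.4 FPKM came from B6 and 7.93 FPKM from PWK, a share of 97.0%. Without Dppa5a and Tdh the remaining 8 genes had 33.0 FPKM with a B6 share of 76.9%.

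Skewed shares were more frequent among genes listed at 0 in B6-Xi, as the members are, than among the other genes. At the same minimum of 1 FPKM, 674 autosomal genes had a 0 in B6-Xi. Of these, 22.7% had a B6 share of at least 90% and 11.4% at most 10%. Of the 8048 autosomal genes at that minimum and above 0 in B6-Xi, 1.64% had a B6 share of at least 90%. Counted over all autosomal genes at the minimum, a 0 in B6-Xi together with a B6 share of at least 90% in PWK-Xi was found for 1.75% of 8722 genes. The mirror class, a 0 in PWK-Xi together with such a share in B6-Xi, held 0.141% of the 7822 autosomal genes of 1 FPKM or more in B6-Xi. These classes differ in how often a 0 occurs at all. Over all genes, 12907 were above 0 in PWK-Xi and 10127 in B6-Xi, so a 0 in PWK-Xi alone was rarer whatever the share. The members were picked with their shares known, so their lean to B6 is a description and neither background makes it a test. As they are all at 0 in B6-Xi, 22.7% is the closer background and not 3.27% alone.

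**Figure D2:**
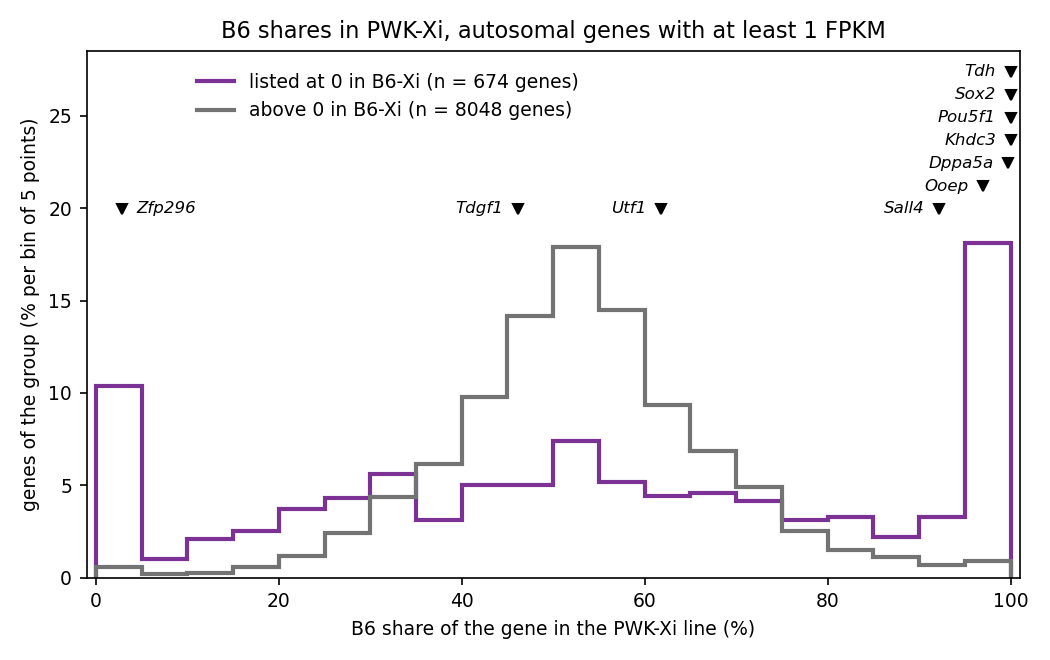
Distribution of the B6 share in PWK-Xi (x axis, percent) over autosomal genes of 1 FPKM or more, as percent of the genes of each class per bin of 5 points (y axis), for 674 genes listed at 0 in B6-Xi and 8048 genes above 0 there; triangles mark the shares of the 10 genes and their height has no meaning. Genes at 0 in B6-Xi pile up at both ends, and 7 of the 10 genes sit at the B6 end.

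The background changed with level. Between 1 and 2.5 FPKM, where Sox2, Sall4, Tdgf1, Khdc3 and Ooep lie, 15.2% of 1884 autosomal genes were at 0 in B6-Xi, and a B6 share of at least 90% was seen for 6%. At 100 FPKM or more, where Dppa5a and Tdh lie, 3.25% of 369 genes were at 0 in B6-Xi, and such a share was seen for 2.44%. Only 4 of these 369 genes showed both features. They were Dppa5a, Tdh, Mir682 and Cd81, a tetraspanin gene that is imprinted in the mouse placenta. At low level a share can also rest on few reads. In PWK-Xi the alleles of Tdgf1 stood as 6 to 7, those of Utf1 as 21 to 13, those of Ooep as 32 to 1 and those of Sall4 as 47 to 4, within a relative tolerance of 2e-05. Such ratios of whole numbers up to 60 held for 53.8% of the 10462 genes with both alleles in PWK-Xi and for 92.5% of the 7506 in B6-Xi. The number of reads behind each value is not given.

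The shares of neighbouring genes did not follow those of most members. Around each member, the nearest genes of 1 FPKM or more in PWK-Xi were read, 10 on each side and without other members. Their median B6 share was 57.3% around Pou5f1, 51.4% around Sox2, 55.7% around Sall4 and 53.6% around Tdh. Around Utf1 and Tdgf1 it was 55.2% and 52.0%. Among the 198 neighbours counted over all 10 genes, with some counted for more than 1 member, 5 had a B6 share of at least 90% and 11 were listed at 0 in B6-Xi. Over all autosomal genes of 1 FPKM or more in PWK-Xi, 3.27% had such a share and 1.62% at most 10%. Of all genes at that minimum, 7.92% were at 0 in B6-Xi. Zfp296 differed from the other members in its neighbours. Its 20 neighbours had a median share of 31.7%, with 5 of them at 10% or less and 6 listed at 0 in B6-Xi, so the lean to PWK was seen in the surroundings of that gene as well.

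On chromosome 9 the annotation order placed Dppa5a and Ooep side by side, with no other listed gene between them. Khdc3 was 41 listed genes away and Tdgf1 322, so Khdc3 is on the same chromosome but is no direct neighbour. Of the 41 genes between Khdc3 and Dppa5a, 14 had 1 FPKM or more in PWK-Xi. Their B6 shares ran from 43.9% to 67.5%, with a median of 55.2%. None was listed at 0 in B6-Xi, against 7.92% of all genes at that minimum. The other genes of the stretch at this minimum thus had both alleles in PWK-Xi and signal in B6-Xi. The bordering pair and Khdc3 differed from them, but these members were picked with their values known. Genes under 1 FPKM are not covered by this comparison.

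Outside the stretch the picture was the same. Of the 10 listed genes before Khdc3 and the 10 after Ooep, 13 had 1 FPKM or more in PWK-Xi. These had B6 shares from 24.8% to 54.7% and a median of 50.6%. None was listed at 0 in B6-Xi, against 7.92% of all genes at that minimum. Next to Ooep lies Ddx43, an RNA helicase gene, with 0.655 FPKM in PWK-Xi and 0.359 FPKM in B6-Xi. Mb21d1, the cytosolic DNA sensor cGAS, had 1.28 FPKM in PWK-Xi and 1.18 FPKM in B6-Xi. Mto1, a mitochondrial tRNA modification gene, had 3.08 FPKM in PWK-Xi and 4.49 FPKM in B6-Xi. These first neighbours were low in both lines. Eef1a1, translation elongation factor 1 alpha, followed with 1878 FPKM at a B6 share of 50.7% in PWK-Xi and 3051 FPKM at 45.9% in B6-Xi, and Slc17a5, a lysosomal sialic acid transporter gene, with 3.49 FPKM in PWK-Xi and 1.72 FPKM in B6-Xi. On the other side, Rab27a, a vesicle transport GTPase gene next to Khdc3, had 0.572 FPKM in PWK-Xi and 0.117 FPKM in B6-Xi. Beyond it, 2310009A05Rik had 25.3 FPKM in PWK-Xi and 18.3 FPKM in B6-Xi, and Pigb, of glycolipid anchor synthesis, had 4.36 FPKM in PWK-Xi and 0.954 FPKM in B6-Xi. Ccpg1 had 3.87 FPKM in PWK-Xi and 4.34 FPKM in B6-Xi, while Dyx1c1 had 0.191 FPKM in PWK-Xi and was listed at 0 in B6-Xi. Of the 7 flanking genes of 5 FPKM or more in either line, 1 was at least 4-fold higher in PWK-Xi, against 7.05% of all genes. This was the collagen gene Col12a1, with 63.3 FPKM in PWK-Xi and 8.96 FPKM in B6-Xi and both alleles present in both lines.

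**Figure D3:**
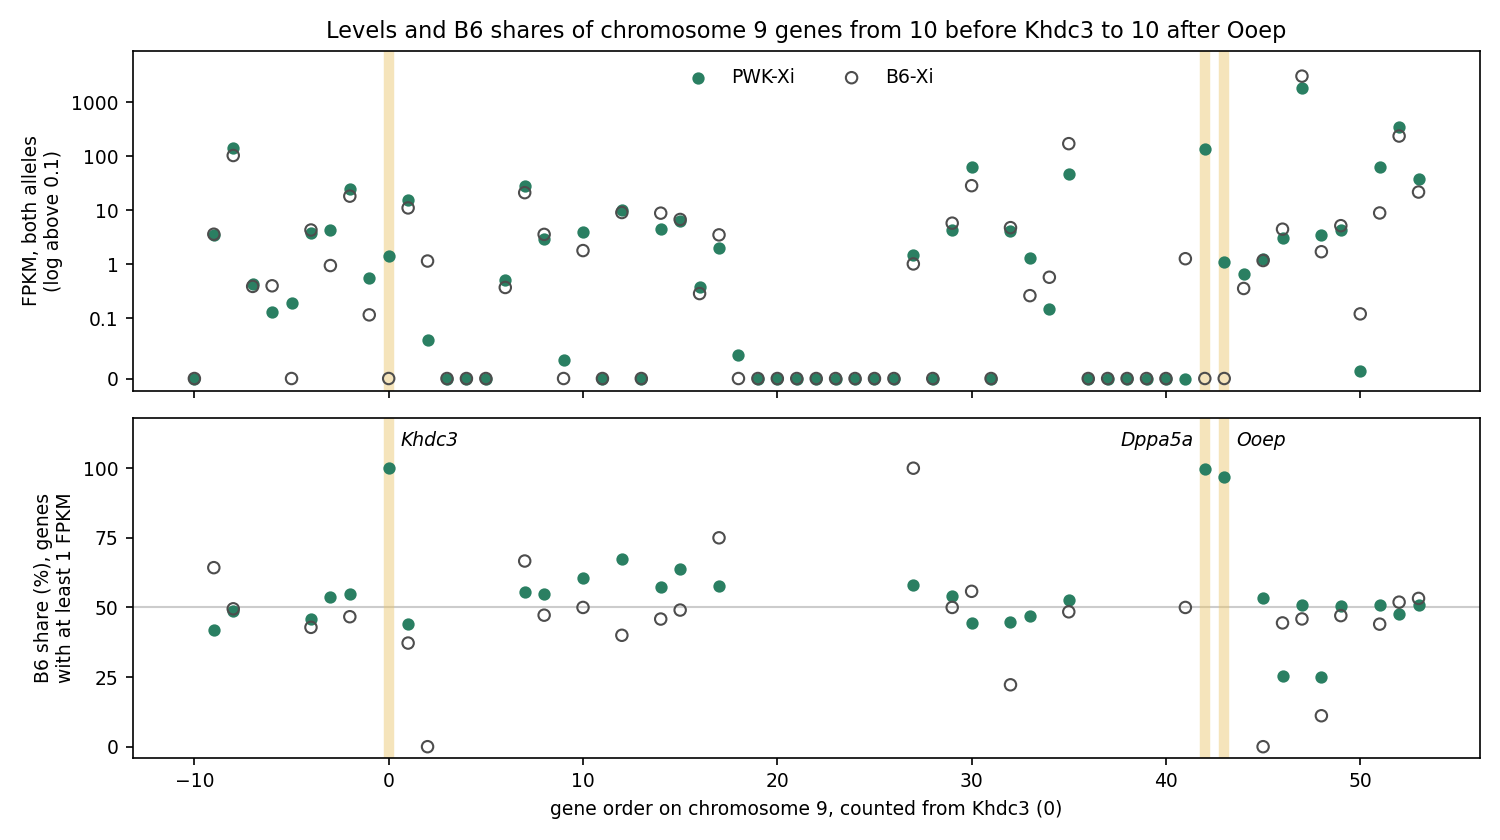
Summed FPKM (top, logarithmic above 0.1) and B6 share (bottom, percent, genes of 1 FPKM or more) of the chromosome 9 genes in annotation order, from 10 before Khdc3 to 10 after Ooep, in PWK-Xi (filled) and B6-Xi (open), with the 3 members shaded. The members lie at 97.0% to 100% B6 in PWK-Xi, and the 27 other genes of 1 FPKM or more there at 24.8% to 67.5%.

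The wider pluripotency network was read from a list of 60 further genes, 51 of core and naive and 9 of primed pluripotency, which was drawn up with earlier results of these data known. Of these, 31 had signal in PWK-Xi and were listed at 0 in B6-Xi, 16 were above 0 in both lines, 13 were at 0 in both, and none was at 0 in PWK-Xi alone. So 31 of the 47 above 0 in PWK-Xi were at 0 in B6-Xi, against 23.3% of all genes above 0 in PWK-Xi. A 0 in PWK-Xi alone was the rarer case over all genes, since 12907 were above 0 in PWK-Xi and 10127 in B6-Xi. Most levels were low, and a 0 in B6-Xi was more frequent at low level. It was found for 7.92% of all genes of 1 FPKM or more in PWK-Xi, so 23.3% is too low a background for the lowest genes. 13 genes of 5 FPKM or more in either line could be compared, of which 4 were at least 4-fold higher in PWK-Xi and 0 at least 4-fold lower, against 7.05% and 1.33% of all genes. Of the 4, 1 was above 0 in B6-Xi. The median of log2((PWK-Xi + 1)/(B6-Xi + 1)) over these 13 was 1.40, against 0.23 over all 5490 genes.

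Zscan10, a zinc finger partner of Sox2 and Pou5f1 in mouse embryonic stem cells, had 11.1 FPKM in PWK-Xi, 100% from B6, and was listed at 0 in B6-Xi. Klf2, a Krüppel-like factor gene of naive pluripotency that endothelial cells also use, had 7.28 FPKM in PWK-Xi, 0% from B6, and was listed at 0 in B6-Xi. Zscan10 thus had the allele pattern of Pou5f1, and Klf2 came from PWK as Zfp296 did. Spp1, the secreted matrix protein osteopontin, which is not restricted to pluripotent cells, had 614 FPKM with a B6 share of 40.3% in PWK-Xi and 119.1 FPKM with 41.7% in B6-Xi.

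Among the 12 autosomal genes of this list at 0 in B6-Xi that reached 0.5 FPKM in PWK-Xi, 9 had a B6 share of at least 90% and 1 had at most 10%, against 24.2% at 90% or more of the 987 autosomal genes chosen in the same way. Beside Zscan10 these included Alpl, tissue-nonspecific alkaline phosphatase, at 2.60 FPKM and 99%, and Gdf3, Nodal, Tex19.1, Slc2a3, Mycn and Tcl1, at 0.51 to 0.939 FPKM and 100%. The 14 autosomal list genes above 0 in both lines, at the same minimum, had a median share of 49.1%, and 2 of them reached 90%, Lefty1 and Sox11. Lefty1, a Nodal antagonist gene, had 1.13 FPKM in PWK-Xi and 4.08 FPKM in B6-Xi, 100% from B6 in both lines. Sox11, the most abundant of the primed genes, had 5.90 FPKM with a B6 share of 91.5% in PWK-Xi and 2.69 FPKM with 0% in B6-Xi. Klf4 (11.2 FPKM in PWK-Xi and 7.03 FPKM in B6-Xi) and Stat3 (11.5 FPKM in PWK-Xi and 13.2 FPKM in B6-Xi) were also above 0 in both lines. Both of these genes are also used by fibroblasts.

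Several defining genes of embryonic stem cells were at or near 0 in PWK-Xi. Of 10 stem cell markers, 8 had any signal in PWK-Xi and none had any in B6-Xi. Of all genes above 0 in PWK-Xi, 23.3% were at 0 in B6-Xi, and 7.92% of those of 1 FPKM or more. A 0 was thus more frequent under 1 FPKM, where Nanog, Dppa3, Dppa4, Fbxo15 and Esrrb lie, so 23.3% is too low a background for them. The summed level of the markers was 20.3 FPKM in PWK-Xi and 0 FPKM in B6-Xi. Most of this sum came from the members Pou5f1 (15.1 FPKM), Sox2 (2.19 FPKM) and Tdgf1 (1.48 FPKM), which were picked for their levels in PWK-Xi. Nanog, the homeobox factor gene of the core network, had 0.36 FPKM in PWK-Xi, 100% from B6. Dppa3 had 0.34 FPKM, Dppa4 0.334 FPKM, Fbxo15 0.35 FPKM and the nuclear receptor gene Esrrb 0.179 FPKM in PWK-Xi, and all were listed at 0 in B6-Xi. Zfp42 (Rex1) and Fgf4 were listed at 0 in both lines. Pou5f1 was thus the single marker of this list above 5 FPKM, and it lay far under Dppa5a and Tdh. What part cells of another type had in the members' values was not tested.

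Genes around single members gave a mixed picture. Zbed3, of the subcortical maternal complex and past 4-fold, had 7.94 FPKM with a B6 share of 56.6% in PWK-Xi and 0.816 FPKM with 69.2% in B6-Xi, and Tle6, of the same complex, had 1.57 FPKM in PWK-Xi and 1.49 FPKM in B6-Xi. Nlrp5, Padi6, Nlrp2 and Nlrp4f, the other listed genes of this complex, were at 0 in both lines, as were the 3 Khdc1 genes of the KH family (Khdc1a, Khdc1b and Khdc1c). So 4 of the 6 other listed genes of the complex had no signal in the line with Ooep and Khdc3. A 0 was common in both lines, as 12907 of all 22711 genes were above 0 in PWK-Xi and 10127 in B6-Xi. The 8 genes of the 2-cell stage found in the files, the Zscan4 cluster among them, were also at 0 in both lines.

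Of 10 genes of threonine and glycine breakdown and of 1-carbon metabolism, 7 had at least 5 FPKM in either line and none was 4-fold higher or lower, against 7.05% and 1.33% of all genes. Gcat, the enzyme gene directly after Tdh, had 16.2 FPKM with a B6 share of 84.2% in PWK-Xi and 10.8 FPKM with 60.3% in B6-Xi. Gcsh, of the glycine cleavage system, had 55.0 FPKM in PWK-Xi and 38.8 FPKM in B6-Xi, and Shmt2, a mitochondrial serine and glycine converter, had 22.8 FPKM in PWK-Xi and 14.4 FPKM in B6-Xi. Tdh alone of this route was at 0 in B6-Xi at a level of 5 FPKM or more in PWK-Xi. Of the 13 Nodal pathway genes around Tdgf1, 2 had 5 FPKM or more in either line and neither was 4-fold different. Smad4, the shared signal transducer gene, had 10.6 FPKM in PWK-Xi and 9.20 FPKM in B6-Xi, and the receptor gene Acvr2a had 5.05 FPKM in PWK-Xi and 3.48 FPKM in B6-Xi. The ligand genes Nodal and Gdf3 were named above, and Foxh1, their transcription factor, had 1.71 FPKM in PWK-Xi, 100% from B6, and was listed at 0 in B6-Xi.

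Paralogs of Pou5f1, Sox2 and Sall4 were low in both lines. Of 17 listed, none reached 5 FPKM. Sox15, which can stand in for Sox2 in complexes with Pou5f1 in mouse cells, had 2.17 FPKM in PWK-Xi, 100% from B6, and was listed at 0 in B6-Xi. Sall2 had 1.77 FPKM with a B6 share of 61.5% in PWK-Xi and 2.16 FPKM with 66.7% in B6-Xi.

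Most fibroblast markers had signal in both lines, and most of those of other cell types were low. Of 14 fibroblast genes, 13 were above 0 in PWK-Xi and 12 in B6-Xi, with summed levels of 3099 FPKM in PWK-Xi and 13394 FPKM in B6-Xi, most of which was S100a4 (2321 FPKM in PWK-Xi and 13006 FPKM in B6-Xi). Of 13 fibroblast genes of 5 FPKM or more in either line, Dcn (decorin, 456.4 FPKM in PWK-Xi and 79.1 FPKM in B6-Xi) was at least 4-fold higher in PWK-Xi and S100a4 at least 4-fold lower. Lum (lumican, 7.20 FPKM in PWK-Xi and listed at 0 in B6-Xi) passes the fold by construction. Col1a2, a collagen chain gene, had 69.2 FPKM with a B6 share of 58.8% in PWK-Xi and 134.3 FPKM with 51.6% in B6-Xi. None of the 13 fibroblast genes of 1 FPKM or more in PWK-Xi had a B6 share of 90% or more. Such a share was also rare over all autosomal genes at that minimum, at 3.27%.

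Of 9 primitive endoderm markers, 6 were above 0 in PWK-Xi and 1 in B6-Xi, summing to 11.8 FPKM in PWK-Xi and 0.808 FPKM in B6-Xi. Dab2, an endocytic adaptor gene that is also active outside the endoderm, made most of this with 10.8 FPKM in PWK-Xi and 0.808 FPKM in B6-Xi. It was the 1 gene of this list with 5 FPKM or more in either line. Dab2 was at least 4-fold higher in PWK-Xi, as were 7.05% of all genes at that minimum. Gata4 at 0.141 FPKM and Gata6 at 0.526 FPKM had signal in PWK-Xi and none in B6-Xi. Of 8 trophoblast markers, 3 were above 0 in PWK-Xi and 2 in B6-Xi, summing to 0.962 FPKM in PWK-Xi and 1.38 FPKM in B6-Xi, with Ascl2 at 0.651 FPKM in PWK-Xi and Plac1 at 1.20 FPKM in B6-Xi as the highest, and Cdx2 at 0 in both lines. Of 8 germ cell markers, 3 were above 0 in PWK-Xi and 1 in B6-Xi, summing to 1.80 FPKM in PWK-Xi and 0.62 FPKM in B6-Xi; Dnd1 (0.856 FPKM in PWK-Xi and 0.62 FPKM in B6-Xi) and Prdm1 (0.601 FPKM in PWK-Xi and listed at 0 in B6-Xi) led them, and Ddx4 and Dazl were at 0 in both.

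Of 7 neural progenitor markers, 3 were above 0 in PWK-Xi and 1 in B6-Xi, summing to 5.58 FPKM in PWK-Xi and 0.774 FPKM in B6-Xi. Fabp7, a fatty acid binding protein gene, made most of this with 4.50 FPKM at a B6 share of 91.7% in PWK-Xi and was listed at 0 in B6-Xi, while Nes (nestin) had 1.04 FPKM in PWK-Xi and 0.774 FPKM in B6-Xi and Sox1 was at 0 in both. Of 5 epithelial markers, of which Cdh1, Epcam and Cldn6 are also in the pluripotency lists, 4 were above 0 in PWK-Xi and 0 in B6-Xi, summing to 1.34 FPKM in PWK-Xi and 0 FPKM in B6-Xi, with the keratin genes Krt8 at 0.461 FPKM and Krt18 at 0.379 FPKM in PWK-Xi and Epcam at 0 in both. No gene of these 5 lists, from primitive endoderm to epithelium, was over 20 FPKM in PWK-Xi. Nor were the 8 members other than Dppa5a and Tdh, so this level does not set those 8 apart from the lists.

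**Figure D4:**
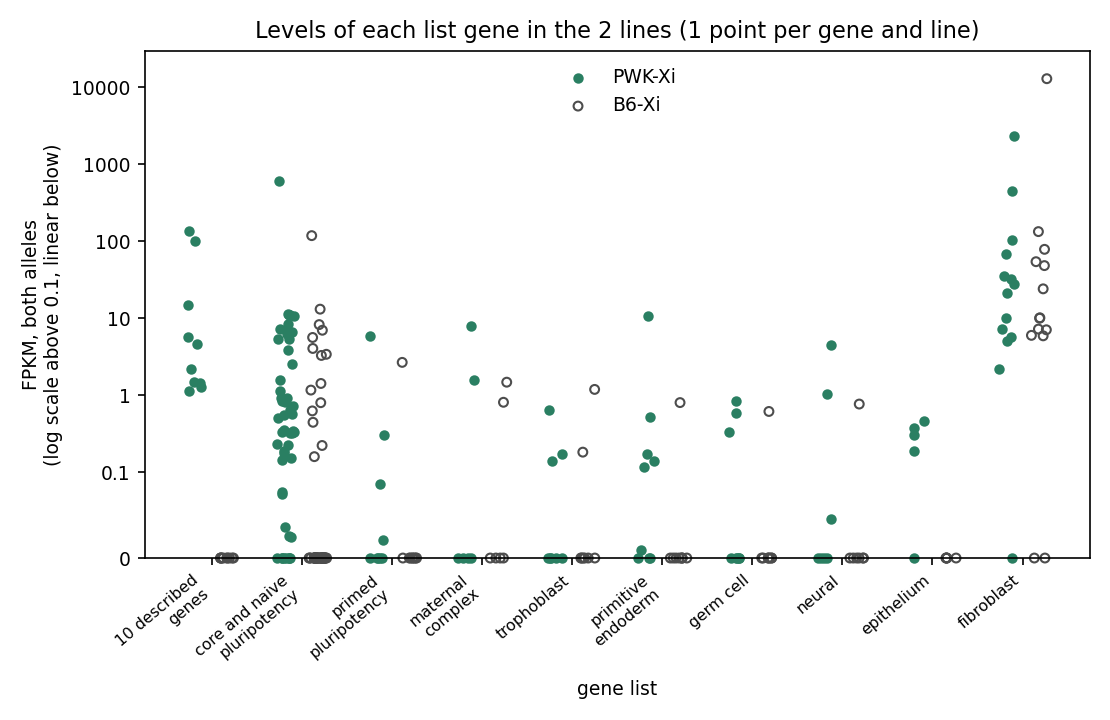
Summed allelic FPKM of each gene (y axis, logarithmic above 0.1) in PWK-Xi (filled, left) and B6-Xi (open, right), by gene list (x axis), with 1 point per gene and line and 1 library per line. The 10 genes lie at 1.13 to 134.9 FPKM in PWK-Xi and at 0 in B6-Xi, while the fibroblast genes reach 2321 FPKM in PWK-Xi and 13006 FPKM in B6-Xi.

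Over the whole files, 12907 genes were above 0 in PWK-Xi and 10127 in B6-Xi, and the summed FPKM was 256196 in PWK-Xi and 285397 in B6-Xi. The median log2 difference of 5241 genes above 0 in both lines, at a minimum of 5 FPKM, was 0.19, and the fold counts above are without this shift. X-linked genes came from 1 copy in the line that had the pluripotency-associated transcripts. In PWK-Xi the median B6 share of 301 X-linked genes of 1 FPKM or more was 100%, and Xist, the RNA that coats the inactive X, had 45.7 FPKM with 97.2% from PWK. Female embryonic stem cells have both X chromosomes active and little Xist. What these values would be in a minor part of the cells of that line was not tested.

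The genes most like Pou5f1 and Dppa5a were found by the distance over the 4 values of each gene, log2 of FPKM with 1 added for 2 alleles in 2 lines, which with 2 libraries is a likeness of levels only. Nearest to Pou5f1 were Clcn4-2 (distance 0.016), the X-linked Wdr45 (0.029), Raet1d (0.066), Atg3 (0.078) and Spint2 (0.154), which lay at 13.7 to 14.9 FPKM in PWK-Xi and at 0 in B6-Xi. The active X of PWK-Xi, on which Wdr45 lies, is the B6 copy. Nearest to Dppa5a were Cd81 (distance 0.55; 103.0 FPKM in PWK-Xi), Tdh (0.576), the aldose reductase gene Akr1b3 (1.06; 67.6 FPKM), Mir682 (1.27; 312.7 FPKM) and Igfbp2, an IGF-binding protein gene (1.39; 52.8 FPKM), and all of them had 100% from B6 in PWK-Xi and a listed 0 in B6-Xi. In all, 153 autosomal genes, on all 19 autosomes, combined a 0 in B6-Xi with 1 FPKM or more and a B6 share of 90% or more in PWK-Xi, which is 1.75% of the 8722 autosomal genes of 1 FPKM or more there. By level, Dppa5a was the 2nd, Tdh the 4th and Pou5f1 the 17th of these 153. The class also held genes outside the lists used here. Examples were Ssr2 (79.4 FPKM in PWK-Xi, B6 share 92.9%), Ppa1 (36.6 FPKM, 100%) and Xpo1 (21.3 FPKM, 100%). Whether a 0 in B6-Xi is a missing estimate for genes of this class was not tested.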

How the data were processed

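Immortal mouse embryonic fibroblast libraries were grouped by title, with 1 per line. The authors deposited FPKM values per gene and allele, per the file headers. The submitters' processing notes give StringTie 2.1.1, HISAT2 2.2.0 and Trim Galore 0.6.4, and the mm9 build; how reads were given to an allele, and their strand, are not given in the sources used here. These are normalized values, so read numbers per gene are unknown and intervals could not be computed.

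Total level was the sum of both alleles, and the B6 share was the B6 FPKM over that sum. Folds were taken on FPKM with 1 added, at a minimum of 5 FPKM in either line, and shares at a minimum of 1 FPKM. There is no replicate, so no test between the lines was possible and no p-value is given. Chromosomes and gene order came from the RefSeq table of GRCm38.p6, whose symbols matched 21417 genes and whose synonyms matched 1196; 98 stayed unmatched, and no gene coordinates of it were set against the files. Promoter sequences are RefSeq's.

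The members, the gene lists and the rules were chosen with earlier results of these data known. Named are all members, the list genes past 4-fold and otherwise the 2 most abundant of a list, the 5 nearest genes on each side on chromosome 9 and the 5 genes nearest in pattern; other genes, such as Col12a1, Gcat and those listed at 0 in both lines, were named after their values were seen. A list gene past 4-fold is not reported here. The threshold of 90% was also set after the values were seen. The scripts ran under Python 3.11.15 with pandas 2.3.3, numpy 2.4.6 and matplotlib 3.10.9, and were tested on simulated data.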

Additional observations from a re-analysis of the deposited data

How the results depend on the processing

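Of 32 recomputed values, 22 stayed as reported or, for counts, within 1.5 times. All 10 genes stayed under 0.1 FPKM in B6-Xi. With a minimum of 20 FPKM, 2 members, and 1 of the other pluripotency genes (Spp1), were left at least 4-fold higher in PWK-Xi. With each line scaled to the same total, which lowers the minimum, these counts were 9 and 8, and 2 for the chromosome 9 flanks. For the other pluripotency genes it was 2 with the PWK allele alone and 1 among genes above 0 in both lines; no member could be counted under either. With 5 flanking genes on each side the count was 0. With a minimum of 5 FPKM the members' median B6 share was 99.9%, over 4 genes, and 3 had at least 90%. That count of 3, the thresholds for the share (7 members at 80% and 6 at 95%), the flanks of Dppa5a and Ooep alone and the shift by the median were added after the data were seen. No paired analysis was possible because each line has 1 library. For the same reason no library could be left out, and no value has an error.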
